A study of Mus musculus with 23 samples.

Results

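The chromodomain helicase DNA-binding (CHD) genes code for ATP-driven chromatin remodellers, and 8 of them, Chd1, Chd2, Chd3, Chd4, Chd6, Chd7, Chd8 and Chd9, were followed on RNA crosslinked to CTCF. They were chosen by name, with no measured value in the rule but with earlier results of these data known, from 55413 annotated genes on chromosomes 1 to 19, X and Y. A site belonged to a member when it lay inside the gene body on the gene's strand in the mouse build mm10. The remaining family gene, Chd5, held 1 site in ESC noXL and 0 in the other 5 lists.

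CHD proteins use ATP to slide, space or evict nucleosomes, and a pair of chromodomains near the N terminus sets the family apart from other Snf2 ATPases. Chd1 and Chd2 act on transcribed chromatin, Chd3 and Chd4 are the ATPases of the NuRD corepressor complex, and Chd6 to Chd9 form a group of very large proteins that act at promoters and enhancers. Chd8 is a known partner of the CTCF protein, and the data here concern CTCF on the RNAs of these genes, not contacts between the proteins.

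The study profiled the RNA contacts of CTCF by iCLIP2, a crosslinking and immunoprecipitation method, in 23 libraries of mouse E14 embryonic stem cells (ESCs) and of neural progenitor cells (NPCs), which had been differentiated from the ESCs for 2 days. All 6 groups carried endogenous CTCF fused to an AID2 degron and received 1 µM 5-Ph-IAA, which degrades it, with 1 µg/mL doxycycline for 24 hours, which induces a Flag-tagged CTCF transgene. ESC WT and NPC WT cells expressed full-length CTCF, ESC ΔZF1 and NPC ΔZF1 cells expressed CTCF without its zinc finger 1, and these 4 groups received 400 mJ/cm2 of UV at 254 nm. ESC noXL and NPC noXL were left without UV and came from the WT rescue line only, so that no unirradiated control of the ΔZF1 line was used here. NPC WT had 3 libraries and every other group had 4.

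The libraries of a group had been merged before single crosslinked nucleotides were called with PureCLIP, so each group was 1 list of sites without replicate error. No test between groups could be made, and every interval below is a 95% interval that covers counting error only. In bulk libraries, fewer cells with an RNA and less of that RNA in each cell cannot be told apart, and RNA abundance was not measured here. The lists held 102002 to 429119 sites inside genes (genic sites), and counts were scaled to these totals before lists were compared. Values of 3 lists of a cell type are given below in the order WT, ΔZF1, noXL. Ctcf itself held 109, 68 and 40 sites in ESCs and 28, 23 and 17 in NPCs. Of the ESC markers, Esrrb held 460 ESC WT sites and 0 NPC WT sites, and Klf4 66 and 0. Of the NPC markers, Nes held 2 ESC WT sites and 28 NPC WT sites, but Hes5 and Zic1 were at 0 in all 6 lists and Sox1 and Pax6 at 0 in all lists except NPC noXL, with 2 and 1 sites. Sox2, which ESCs also express, ran against the NPC label, with 35 ESC WT sites, 9 NPC WT sites and 0 NPC ΔZF1 sites. Of the 6 NPC markers, Nes alone held more WT sites in NPCs than in ESCs.

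The first sequences are examples of the strongest uridine sites of a member in coding exons, with no noXL site within 5 nt. UV links proteins most readily to uridine, and the condition on noXL sites leaves out positions that were also called without UV. Base and gene part were set by this rule, so the examples do not show a typical site. Of the ESC WT family sites, 56.4% lay on uridine and 35.1% in introns. Each run is the 21-nt window on the gene's strand in mm10, 5′ to 3′, with the crosslinked base in capitals.
Chd1, ESC WT, chr17:15735722-15735742, plus strand: tatgggccgtTtctactagtt
Chd4, ESC WT, chr6:125100821-125100841, plus strand: ggccagagttTgtggaggagg
Chd8, ESC WT, chr14:52206984-52207004, minus strand: cagctaggctTcgccgcctag
Chd7, NPC WT, chr4:8841259-8841279, plus strand: gctccacattTgctaaggttt
Chd4, NPC WT, chr6:125120495-125120515, plus strand: ccagtccgatTactcagtggc
The Chd4 site of the NPC WT list had a score of 47.5, higher than 98.55% of the sites in its list, and ESC WT had a site within 5 nt of it. The Chd8 site had a score of 16.2, above 93.17% of the ESC WT sites, and no other UV list had a site within 5 nt.

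The strongest sites of several members had another form, and they are shown because they recurred in lists made without UV. They lay 1 to 3 nt before the annotated start of an RNA, a small RNA inside an intron or a transcript of the member itself.
Chd8, 2 nt before the snoRNA Snord8, chr14:52209886-52209906, minus strand: cctgtgactgTgtcccgatga
Chd4, 1 nt before the scaRNA Gm23751, chr6:125121713-125121733, plus strand: ttacaaaaatCttgtcctgtg
Chd4, 2 nt before a Chd4 transcript start, chr6:125096165-125096185, plus strand: gagccggagcCattttccccc
Chd2, 2 nt before a Chd2 transcript start, chr7:73541738-73541758, minus strand: ggcagagctcTcagagctggg
Chd3, 58 nt before the scaRNA Gm22442, chr11:69350709-69350729, minus strand: tcctctcggcTaccatgtgat
The Chd8 site was the only position of the family that was called in all 6 lists, with scores of 94.9, 88.7 and 47.8 in ESCs and 28.5, 40.2 and 8.78 in NPCs. The Chd3 site, which lies outside the window of 3 nt, was called in 5 lists. In all, 3306 family positions occurred in 1 list, 144 in 2, 23 in 3, 5 in 4, 5 in 5 and 1 in 6.

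Sites 1 to 3 nt before an annotated start were few but ranked high. They were 12 of 1024 (1.17%, 95% Wilson interval 0.672 to 2.04), 11 of 594 and 8 of 423 family sites in ESCs, and 8 of 722, 4 of 587 and 4 of 364 in NPCs. Their median score in ESC WT was 36.6, against 2.18 for the other family sites. They made up 7 of the 10 strongest ESC WT sites of the family and 7 of 10 with ΔZF1, but also 4 of 10 in ESC noXL. In NPCs they made up fewer, 4, 3 and 1 of the 10 strongest, and their median scores were 32.4, 43.7 and 8.70. Uridine lay under 25.0% of them in ESC WT. The highest score of a CHD gene was therefore at times the score of a small RNA or transcript end that was also called without UV.

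**Figure D1:**
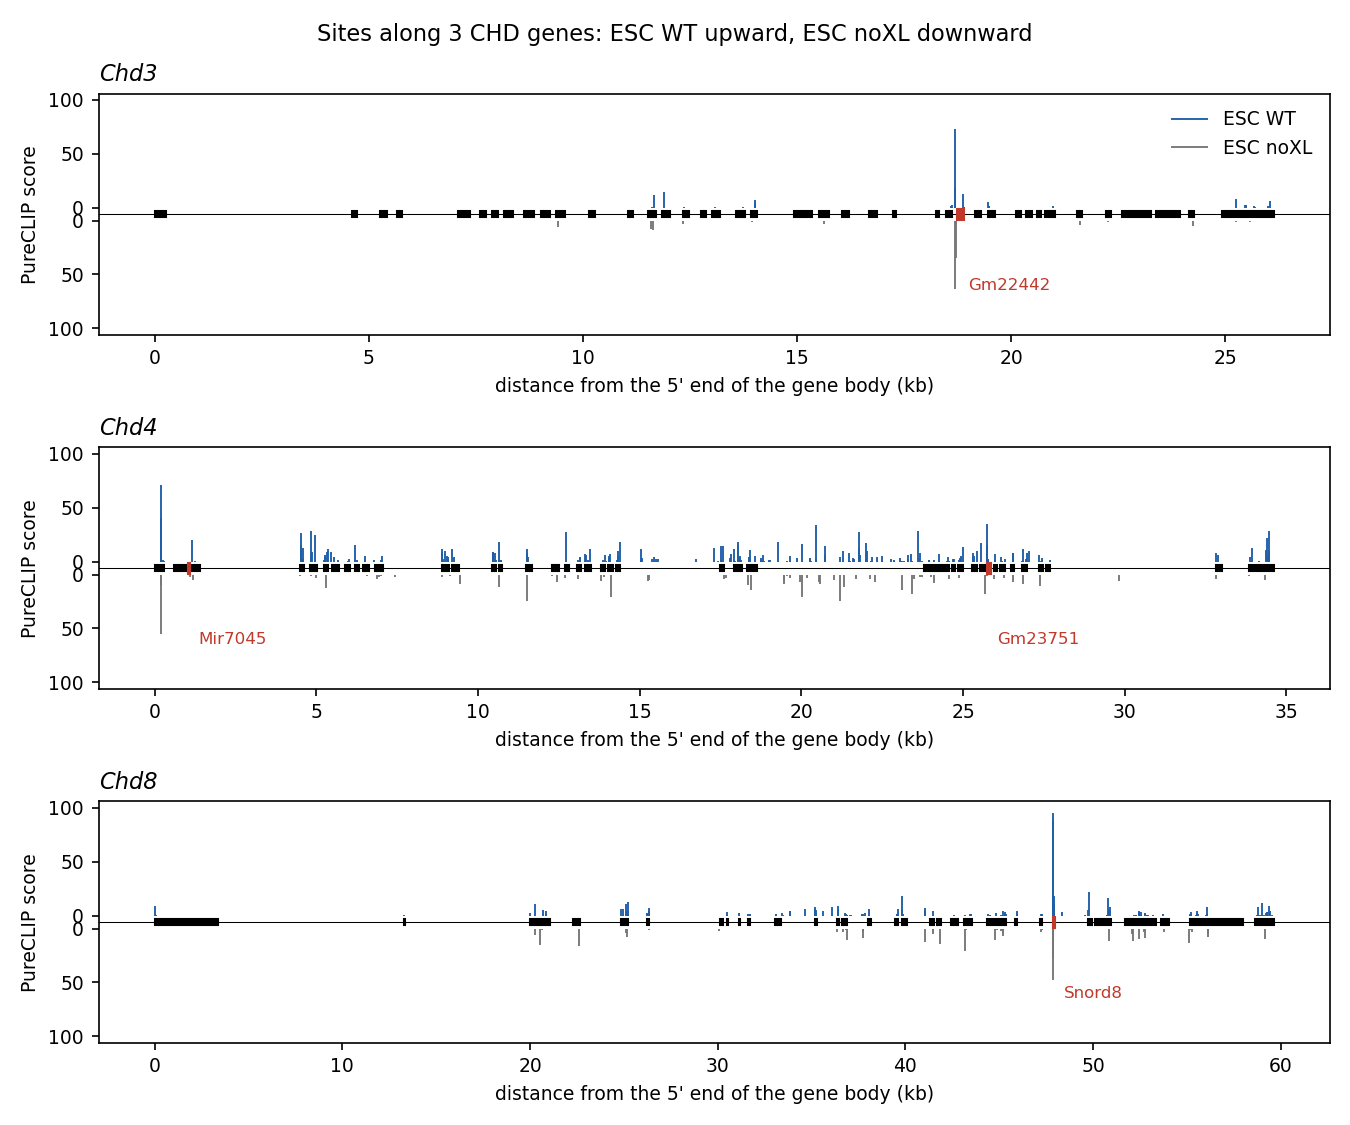
PureCLIP score of each site (y axis) against distance from the 5′ end of the gene body in kb (x axis) along Chd3, Chd4 and Chd8, with ESC WT upward, ESC noXL downward, exons in black and annotated small RNAs in red. The tallest line of Chd8, at a score of 94.9 in ESC WT, stood at Snord8 and had a counterpart of 47.8 in ESC noXL, and the tallest line of Chd3, at 72.9, stood near Gm22442 with a counterpart of 63.1.

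Per kb of exon, Chd4 carried the most sites of the family in both WT lists. In ESC WT its exons held 17.8 sites per kb (95% Poisson interval 15.0 to 21), above the interval of the next member, Chd1, at 9.98 (7.99 to 12.3). Chd1, Chd8 at 7.63 (6.35 to 9.08) and Chd2 at 7.13 (5.82 to 8.66) did not differ beyond counting error between neighbours in this order. A step followed to Chd9 at 3.72 (2.97 to 4.59), and from there Chd6 at 3.30, Chd3 at 2.72 and Chd7 at 2.54 (1.77 to 3.53) had overlapping intervals. In NPC WT Chd4 was again the densest, at 11.6 sites per exon kb (9.36 to 14.2), Chd1 followed at 7.57 and Chd7 moved to the third place at 5.15 (4.02 to 6.50). Chd3 was the least dense in NPC WT, at 1.07 (0.487 to 2.02). In NPC ΔZF1 Chd1 lay above Chd4, at 4.36 against 3.87 sites per exon kb, and in NPC noXL at 3.90 against 0.748. These levels depend on RNA abundance and list length, so they order genes within a list only.

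Introns ranked the members in another order. Chd4 introns held 3.20 sites per kb in ESC WT (2.55 to 3.95) and Chd2 introns 1.84 (1.59 to 2.13), while Chd7 introns held 0.0122 (0.00148 to 0.0442). Chd2 was the only member with most of its ESC WT sites in introns, 186 of 288, and its exon share was 35.4% (30.1 to 41.1). The other 7 members had exon shares from 62.7% for Chd4 to 94.6% for Chd7. When the Chd2 body was divided into 5 parts of equal length, they held 53, 66, 47, 18 and 2 of the 186 ESC WT intron sites from the 5′ end to the 3′ end. In ESC noXL the parts held 14, 16, 25, 11 and 2 of 68. The part at the 5′ end held 47 of 82 in NPC WT and 18 of 48 in NPC noXL. Intron length per part was not taken into account. Over the family, exons held 64.9% of the ESC WT sites (62 to 67.8), beside 66.6% of all genic sites, and 68.0% of the NPC WT sites (64.5 to 71.3), beside 73.1%. Within exons, most ESC WT sites were in coding sequence: 491 of 665, with 52 in 5′ UTRs and 89 in 3′ UTRs.

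Chd1 encodes a remodeller that spaces nucleosomes behind elongating polymerase and keeps ESC chromatin open. Chd1 held 114, 49 and 37 sites in ESCs and 82, 56 and 42 in NPCs. The scaled counts were level across ESC lists, at 26.6, 22.5 and 24.5 sites per 100000 genic sites, with overlapping intervals. They were also level across NPC lists, at 35.6, 36.6 and 41.2. In ESC ΔZF1 only 2 Chd1 sites were intronic, against 27 in ESC WT and 9 in ESC noXL, so that the exon share was 95.9% (86.3 to 98.9) against 76.3% (67.7 to 83.2). In NPC ΔZF1 the exon share was 67.9% (54.8 to 78.6), against 80.5% in NPC WT.

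Chd2, a remodeller of transcribed genes whose loss causes a childhood epilepsy, had the most ESC WT sites of the family. The counts were 288, 215 and 128 in ESCs and 132, 157 and 84 in NPCs. Scaled to genic sites, ESC ΔZF1 stood at 98.7 sites per 100000 (86.0 to 113) and ESC WT at 67.1 (59.6 to 75.3), and the intervals did not overlap. NPC ΔZF1 stood at 102 (87.1 to 120) and NPC WT at 57.4 (48.0 to 68.0). ESC noXL, at 84.9, and NPC noXL, at 82.4, lay between the WT and ΔZF1 values in both cell types. In both ΔZF1 lists Chd2 had the most sites of the family, as it did in ESC WT.

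The Chd2 body overlapped the lncRNA gene 1810026B05Rik, which lies upstream on the same strand and is known to restrain Chd2 expression, by 2628 nt. Of the Chd2 sites, 22, 10 and 8 in ESCs and 11, 13 and 5 in NPCs lay inside both genes and are not attributable to either alone. In ESCs the lncRNA gene held 124 sites with WT CTCF and 67 with ΔZF1, a scaled log2 ratio of 0.10, beside 0.56 for Chd2. In NPCs the counts were 57 and 55, a scaled log2 ratio of 0.54, beside 0.84 for Chd2.

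Chd3 and Chd4 encode alternative ATPases of NuRD, the complex that joins nucleosome remodelling to histone deacetylation. Chd3 was the sparsest member, with 28, 3 and 18 sites in ESCs and 13, 2 and 7 in NPCs. In exons the counts were 23, 0 and 16 in ESCs and 9, 0 and 5 in NPCs, so that neither ΔZF1 list held a Chd3 exon site. Among genes with at least as many WT exon sites, Chd3 included, 9 of 4547 (0.198%) had 0 ΔZF1 exon sites in ESCs. In NPCs it was 90 of 5917 (1.52%). On chromosome 11 these numbers were 3 of 480 in ESCs and 18 of 580 in NPCs. With a floor of 3 sites in the list, the ESC ΔZF1 exon count was at least 7.67-fold lower than in ESC WT and at least 5.33-fold lower than in ESC noXL, before scaling for list length. Scaled to the exon sites of the lists, these bounds were 3.98-fold and 8.77-fold. The NPC bounds were weaker, at 3.00-fold against NPC WT and 1.67-fold against NPC noXL before scaling, and 1.65-fold and 2.64-fold after it. All 3 Chd3 sites of ESC ΔZF1 and both sites of NPC ΔZF1 lay inside or within 100 nt of the intronic scaRNA Gm22442.

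Genes of chromosome 11, which carries Chd3, had a median scaled log2 ratio of ΔZF1 to WT of -0.47 in ESCs and -0.61 in NPCs. Within 1 Mb of Chd3, the 32 genes compared in ESCs had a median of -0.33, and 1 of them was lower than Chd3 at -1.88. Because the noXL list of ESCs, from the WT line, held 16 Chd3 exon sites, the difference was between the ΔZF1 list and both lists of the WT line, and the abundance of Chd3 RNA in the ΔZF1 line was not tested.

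Chd4, the main NuRD ATPase of ESCs, held 228, 104 and 74 sites in ESCs. The scaled values were 53.1, 47.8 and 49.1 per 100000 genic sites, with overlapping intervals. The NPC lists held 153, 68 and 26, or 66.5 (56.4 to 77.9), 44.4 (34.5 to 56.3) and 25.5 (16.7 to 37.3) per 100000. NPC WT was above the other 2 lists without overlap at the printed bounds, and NPC noXL was low mainly in exons, with 6 exon sites against 93 in NPC WT and 31 in NPC ΔZF1. Of 85 Chd4 intron sites in ESC WT, 36 lay in the middle part of 5 equal parts of the body and 47 in the part after it. In ESC noXL these 2 parts held 15 and 13 of 34 intron sites.

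Chd6 encodes an ATPase of the large group that resembles Chd7, Chd8 and Chd9. It held 69, 55 and 40 sites in ESCs and 59, 76 and 32 in NPCs. Its scaled value was higher in NPC ΔZF1, at 49.6 per 100000 genic sites (39.1 to 62.1), than in NPC WT, at 25.6 (19.5 to 33.1). NPC noXL lay between them, at 31.4 (21.5 to 44.3), and its interval overlapped both. In ESCs the values were 16.1 (12.5 to 20.3), 25.3 (19 to 32.9) and 26.5 (18.9 to 36.1), so ESC ΔZF1 was close to ESC noXL. In NPC introns Chd6 held 4 WT and 29 ΔZF1 sites, a scaled log2 ratio of 2.62 (1.44 to 4.34), and in exons 55 and 47 sites, a scaled log2 ratio of 0.64 (0.08 to 1.19). The exon share of Chd6 was 93.2% (83.8 to 97.3) in NPC WT and 61.8% (50.6 to 71.9) in NPC ΔZF1.

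Chd7, which is mutated in CHARGE syndrome and acts at enhancers of neural and neural crest cells, held 37, 20 and 22 sites in ESCs. The NPC counts were 84, 47 and 48, so that each NPC list had over 2 times the sites of its ESC counterpart although every NPC list was the shorter. Scaled to genic sites, the ESC values were 8.62 (6.07 to 11.9), 9.18 and 14.6 (9.14 to 22.1) and the NPC values 36.5 (29.1 to 45.2), 30.7 and 47.1 (34.7 to 62.4). In neither cell type did the WT value exceed the noXL value. Nearly all Chd7 sites of ESCs were in exons, 35 of 37 in ESC WT and 20 of 20 in ESC ΔZF1.

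Chd8, a remodeller often mutated in autism whose protein binds CTCF, held 152, 74 and 47 sites in ESCs and 68, 48 and 30 in NPCs. Its scaled values were among the most even of the family, 35.4 (30.0 to 41.5), 34.0 (26.7 to 42.7) and 31.2 (22.9 to 41.4) per 100000 genic sites in ESCs and 29.5, 31.3 and 29.4 in NPCs. All 6 intervals overlapped. Chd8 sites were mostly exonic, 126 of 152 in ESC WT, and 114 of these were in coding sequence. Without the sites 1 to 3 nt before annotated starts, a setting chosen after the data were seen, the scaled log2 ratio of Chd8 moved from -0.05 to -0.08 for ESC ΔZF1 against ESC WT.

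Chd9, a close relative of Chd8 with fewer known roles, held 108, 74 and 57 sites in ESCs and 131, 133 and 95 in NPCs. The NPC values were high in all lists, at 56.9 (47.6 to 67.5), 86.8 (72.7 to 103) and 93.1 (75.4 to 114) per 100000 genic sites, against 25.2 (20.6 to 30.4), 34.0 and 37.8 in ESCs. As for Chd6, the NPC ΔZF1 list had a larger intron share than NPC WT: 57 of 133 sites were in exons, 42.9% (34.8 to 51.4), against 65.6% (57.2 to 73.2) in NPC WT. In NPC noXL it was 50.5% (40.6 to 60.4), which overlapped both. Over the whole family the exon share was 50.6% (46.6 to 54.6) in NPC ΔZF1, and over all genic sites of that list it was 60.4%.

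**Figure D2:**
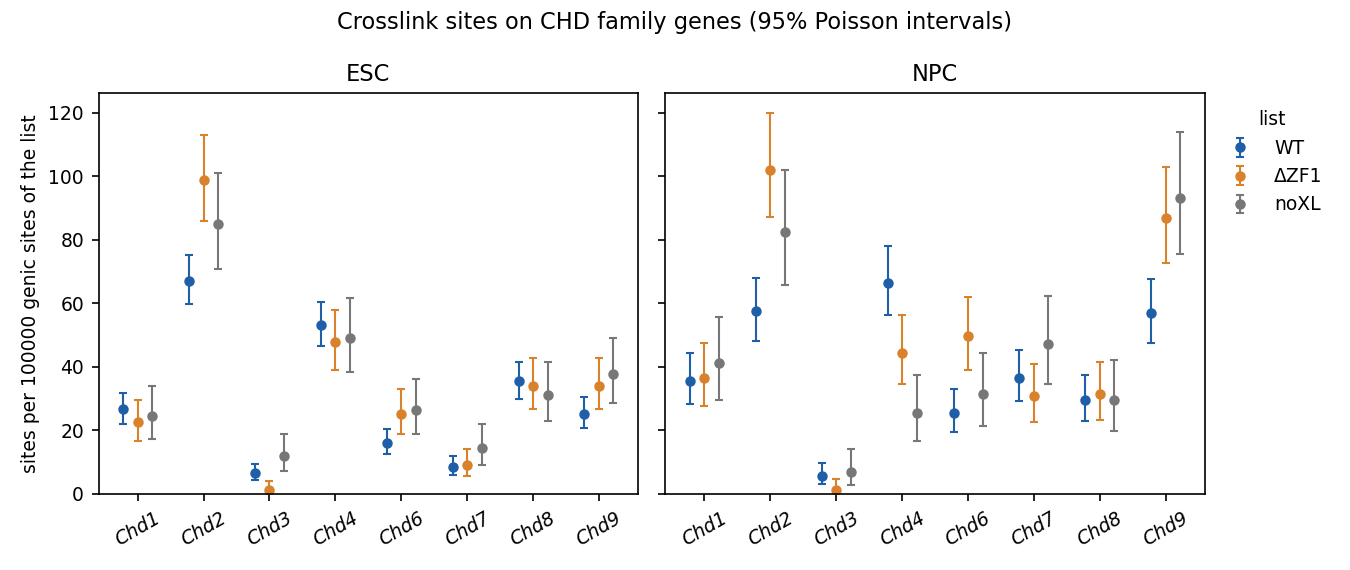
Sites per 100000 genic sites of the list (y axis, from 0) for the 8 CHD genes (x axis) in ESCs and NPCs; points are the WT, ΔZF1 and noXL lists, bars are 95% Poisson intervals and each point is 1 pooled list. The Chd2 point was highest in ΔZF1 in both cell types, with an interval that overlapped that of noXL, Chd3 was at 1.38 in ESC ΔZF1 and 1.31 in NPC ΔZF1, and Chd7 and Chd9 stood higher in each NPC list than in its ESC counterpart.

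The first comparison asks which CHD RNAs carried other shares of CTCF sites when zinc finger 1, an RNA-contacting part of CTCF, was missing. The family as a whole took 0.239% of the ESC WT genic sites and 0.273% of the ESC ΔZF1 genic sites, a scaled log2 ratio of 0.19 (0.05 to 0.34), while the unscaled ratio was -0.78 because the ESC ΔZF1 list was shorter. The NPC shares were 0.314% and 0.383%, a scaled log2 ratio of 0.29 (0.13 to 0.45) and an unscaled one of -0.30. Chd2 contributed most of the ESC difference, and without it the scaled ratio of the family was 0.02 (-0.16 to 0.20) in ESCs and 0.13 (-0.05 to 0.31) in NPCs, so that both intervals held 0. The interval also held 0 for ESC intron sites alone, at 0.07 (-0.19 to 0.32), ESC uridine sites alone, at 0.20 (-0.01 to 0.40), and NPC exon sites alone, at 0.14 (-0.07 to 0.34). The list lengths set the sign of the unscaled values, so directions below are relative to all genic sites. The study reported fewer reproducible peaks with ΔZF1 than with WT CTCF in both cell types. Scaling removes any such difference of whole lists, so a scaled ratio above 0 does not by itself mean more sites.

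Chd3 was the only member past a log2 limit of 1 in either direction between ESC ΔZF1 and ESC WT, at -1.88 (-3.87 to -0.61) scaled and -2.86 unscaled. In that comparison 5.45% of the 6518 genes compared, those that reached 20 sites over the pair of lists, were at or below -1 and 6.84% at or above 1, and 0.890% were lower than Chd3. With only sites at or above a score of 3.02 the Chd3 ratio was -0.65, which is within the limits. In introns alone it was 0.46 (-1.61 to 2.23), from 3 and 5 sites. In NPCs Chd3 had 15 sites in both lists together and was not counted. None of the 7 members counted there passed a limit, against 5.76% of genes at or above 1 and 7.36% at or below -1.

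Short of the limits, 3 members had scaled ratios whose intervals excluded 0 upward in both cell types, as did 2.13% of the 4781 genes with enough sites in both. Chd2 had 0.56 (0.30 to 0.81) in ESCs and 0.84 (0.50 to 1.17) in NPCs. Chd6 had 0.66 (0.14 to 1.16) and 0.95 (0.46 to 1.44), and Chd9 had 0.44 (0.01 to 0.86) and 0.61 (0.26 to 0.96). In ESCs 77.0% of genes or more lay below each of these ratios and 12.3% had such an interval, and in NPCs 9.95% did. For Chd2 the interval excluded 0 also in exons, introns and uridine sites alone. For Chd6 it held 0 in ESC introns, at 0.56 (-1.26 to 2.18), and ESC uridine sites, at 0.24 (-0.57 to 0.98), and for Chd9 in ESC introns, at -0.67 (-2.09 to 0.43), and NPC exons, at 0.28 (-0.21 to 0.75). Unscaled, the 3 ratios were -0.42, -0.32 and -0.54 in ESCs and 0.25, 0.36 and 0.02 in NPCs. Chd4 had -0.15 (-0.49 to 0.18) in ESCs and -0.57 (-0.99 to -0.17) in NPCs, and the intervals of Chd1, Chd7 and Chd8 spanned 0 in both. Among the ratios of these last 3 genes in exons, introns or uridine sites alone, intervals below 0 were found for Chd1 in ESC introns, at -2.18 (-4.64 to -0.78) from 2 and 27 sites, and for Chd7 in NPC uridine sites, at -0.87 (-1.70 to -0.14). Whether any member's ratio differed between cell types was not tested. Against noXL, the scaled ΔZF1 ratios of Chd2, Chd6 and Chd9 in ESCs were 0.21 (-0.10 to 0.53), -0.08 (-0.65 to 0.51) and -0.16 (-0.65 to 0.34). In NPCs they were 0.31 (-0.07 to 0.70), 0.64 (0.07 to 1.25) and -0.11 (-0.48 to 0.28). ESC WT was below ESC noXL for the same genes, at -0.34 (-0.64 to -0.04), -0.74 (-1.28 to -0.16) and -0.60 (-1.05 to -0.13).

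**Figure D3:**
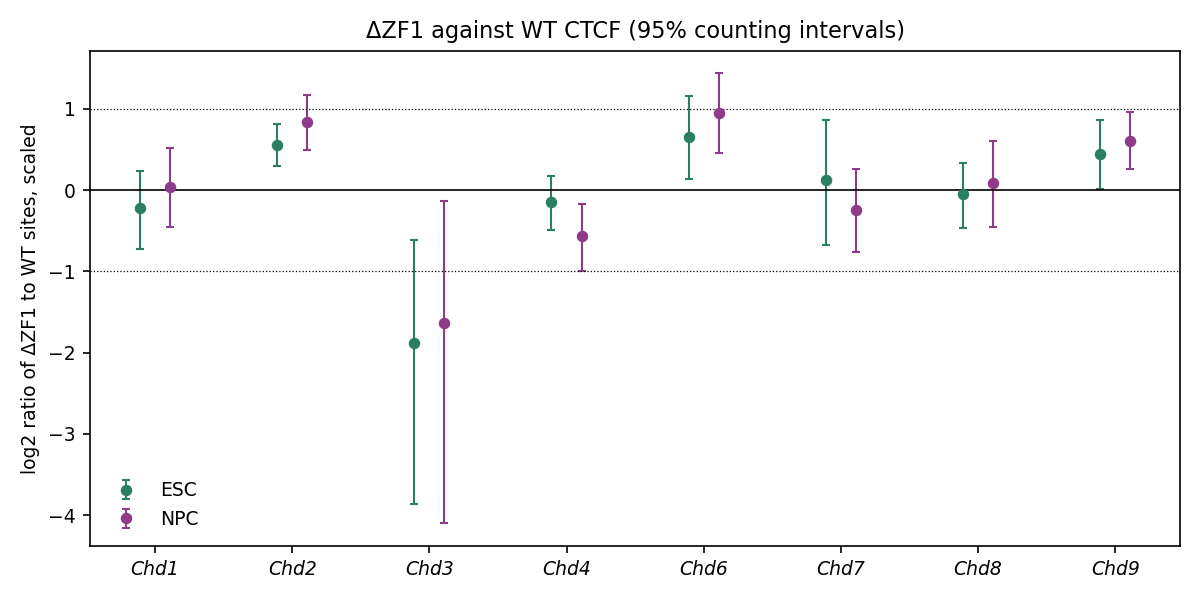
Log2 ratio of ΔZF1 to WT sites, scaled to genic sites (y axis), for the 8 CHD genes (x axis) in ESCs and NPCs; points are ratios of pooled lists, bars 95% counting intervals, dotted lines the limits of 1 and -1. Chd3 was at -1.88 in ESCs, and Chd2, at 0.56 and 0.84, Chd6 and Chd9 were above 0 in both cell types after scaling, while their unscaled ESC ratios were below 0.

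The comparison with noXL asks how far the sites on CHD RNAs exceeded what was called without UV. All 8 members held more sites in ESC WT than in ESC noXL and in NPC WT than in NPC noXL, but so did the lists as wholes, and after scaling the family was lower in WT, at -0.24 (-0.40 to -0.07) in ESCs and -0.19 (-0.37 to -0.0042) in NPCs, against unscaled ratios of 1.27 and 0.99. Without Chd2 both intervals held 0, at -0.19 (-0.38 to 0.01) in ESCs and -0.10 (-0.30 to 0.11) in NPCs, and in NPCs the interval also reached 0 without chromosome 11, at -0.18 (-0.37 to 0.00061). With uridine sites alone the values were -0.19 (-0.47 to 0.12) and -0.14 (-0.44 to 0.19), and with intron sites alone -0.03 (-0.29 to 0.25) and 0.05 (-0.24 to 0.35). No member passed a limit in ESCs, where 8.12% of the 6208 genes were at or above 1 and 6.60% at or below -1. In NPCs Chd4 passed, at 1.34 (0.79 to 1.98), where 10.5% of the 4765 genes did so and 6.51% were at or below -1. Against noXL, ESC ΔZF1 gave -0.04 for the family and passed the limit for Chd3 alone, at -2.78 (-4.78 to -1.45), with 6.56% of genes at or below -1 and 7.86% at or above 1. In introns alone Chd3 was at 0.22 (-1.93 to 2.71), from 3 and 2 sites. NPC ΔZF1 gave 0.10 (-0.09 to 0.29) for the family, with none of 7 members past a limit, where 7.19% of genes were at or above 1 and 8.03% at or below -1. Its parts ran opposite ways, at -0.15 (-0.40 to 0.11) in exon sites alone and 0.41 (0.13 to 0.69) in intron sites alone.

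The base under the sites did separate UV lists from noXL lists on the same RNAs. Uridine lay under 56.4% (53.4 to 59.5), 46.0% (42.0 to 50) and 25.3% (21.4 to 29.6) of the family sites in ESCs. The NPC values were 64.1% (60.6 to 67.5), 56.2% (52.2 to 60.2) and 26.6% (22.4 to 31.4). Over all genic sites the shares were 60.6%, 49.2% and 28.3% in ESCs and 64.6%, 59.0% and 27.9% in NPCs. In ESC WT the family share was below that of its list beyond its interval, and in the other lists the interval held the share of all genic sites. The uridine share was higher in WT than in noXL for 8 of 8 members in each cell type, and the interval of the difference excluded 0 for 7 in ESCs, all but Chd7, and for 8 in NPCs. Over all genes with 20 or more sites in the pair and a site in each list, the share was higher in WT for 95.8% in ESCs and 96.7% in NPCs, and the interval excluded 0 for 55.2% and 61.9%. The family differences, 31.1 and 37.5 points, were close to the 32.3 and 36.7 points of all genic sites.

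The intervals of this difference overlapped between all 8 members in ESCs. The difference ran from 22.4 percentage points for Chd7 (-2.44 to 41.7) to 37.9 for Chd8 (22.2 to 49.9), and over all genic sites it was 32.3. Uridine was also more frequent beside the sites: in ESC WT it made up 34.7% of family bases 1 to 3 nt away and 27.2% of those 4 to 10 nt away, against 24.8% and 26.3% in ESC noXL.

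Between ΔZF1 and WT the uridine share of the family was lower by 10.5 points in ESCs (interval of the difference -15.5 to -5.44) and by 7.91 points in NPCs (-13.2 to -2.58). All genic sites differed by -11.4 and -5.61 points. The share was lower in ΔZF1 for all 8 members in ESCs, with intervals that excluded 0 for Chd6, at -23.4 points (-39.1 to -5.74), and Chd8, at -14.6 (-27.7 to -0.792). In NPCs it was lower for 7 of 8, with intervals that excluded 0 for Chd4, at -19.9 (-33.3 to -6.05), and Chd7, at -26.9 (-42.4 to -9.08). Chd8 in NPCs had a difference of 2.45 points (-15.5 to 19.9). Over all genes compared, the share was lower in ΔZF1 for 77.7% in ESCs and 64.9% in NPCs, with intervals below 0 for 15.9% and 7.37%, so most genes in the lists had a lower share as well. The Chd6 sites of ESC ΔZF1 had a uridine share of 34.5% (23.4 to 47.7), and those of ESC noXL 30.0% (18.1 to 45.4).

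**Figure D4:**
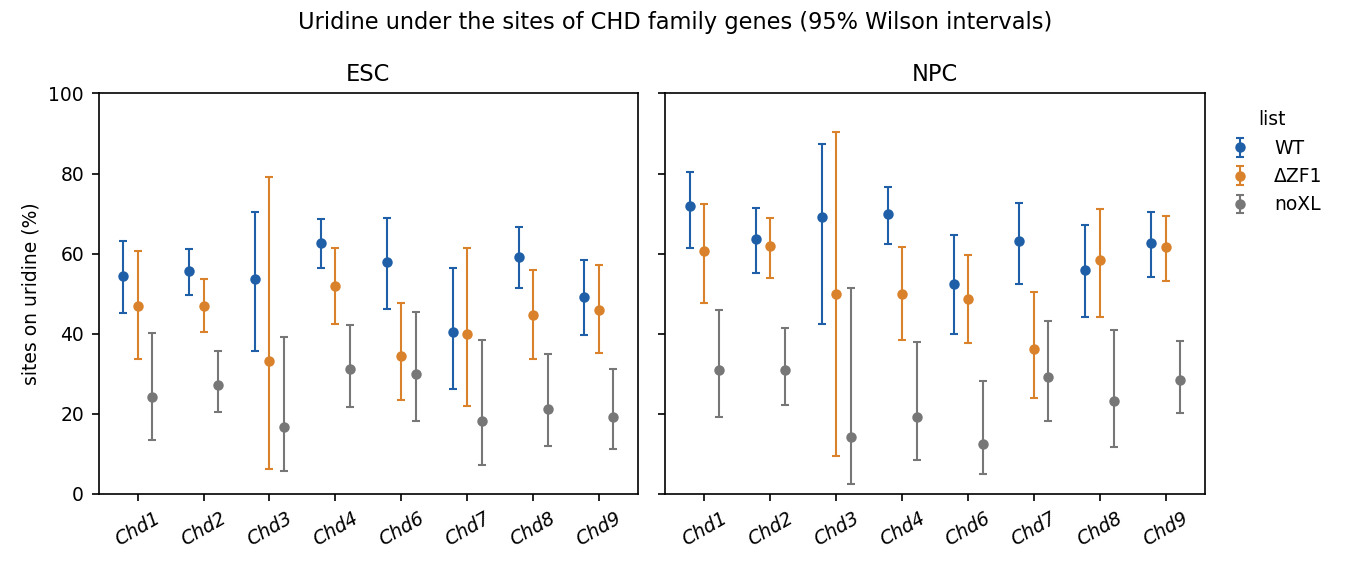
Share of sites on uridine in percent (y axis, 0 to 100) for the 8 CHD genes (x axis) in ESCs and NPCs; points are the WT, ΔZF1 and noXL lists and bars 95% Wilson intervals. All WT points lay above the noXL points of the same gene and cell type, and the Chd3 points of ΔZF1 rested on 3 and 2 sites.

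Sites of different lists lay within 5 nt of each other to a limited extent. In ESC ΔZF1, 113 of 594 family sites (19%, 16.1 to 22.4) lay within 5 nt of an ESC WT site, against 3.11% after the sites were shifted by 500 or 1000 nt, and over all genic sites the share was 24.2%. The ESC share of the family was thus below that of all genic sites beyond its interval. In NPC ΔZF1, 65 of 587 family sites (11.1%, 8.78 to 13.9) lay near an NPC WT site, against 1.28% after shifts and 13.1% over all genic sites. ESC WT sites lay near an ESC noXL site in 8.69% of cases (7.12 to 10.6), against 1.39% after shifts and 7.67% over all genic sites. NPC WT sites lay near an NPC noXL site in 5.40% (3.98 to 7.30), against 1.07% after shifts and 5.64% over all genic sites, so both family shares were close to those of all genic sites.

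The share of sites near a WT site varied between members, but no shifted background was computed for single members. Of the Chd4 sites, 35.6% in ESC ΔZF1 (27.0 to 45.1) and 29.4% in NPC ΔZF1 (19.9 to 41.1) lay near a WT site. For Chd2, which had more sites in ΔZF1 after scaling, the shares were 11.6% (8 to 16.6) and 5.10% (2.60 to 9.73). Chd8 lay between, with 24.3% (16.0 to 35.2) and 12.5% (5.86 to 24.7), and Chd7 had 7 of 20 sites and 5 of 47. Read totals were not used here, so the depth is unknown, and a longer list offers more positions to lie near. A gene with denser WT sites does so too. In ESC WT, Chd4 held 17.8 sites per exon kb and Chd2 7.13. Whether members differ in sharing beyond their site density was not tested.

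The last comparison asks how CHD RNAs changed their share of CTCF sites between ESCs and NPCs. The family took a larger share in NPCs, with scaled log2 ratios of 0.40 (0.26 to 0.53) in WT, 0.49 (0.33 to 0.65) in ΔZF1 and 0.35 (0.15 to 0.55) in noXL, while the unscaled ratios were -0.50, -0.02 and -0.22. In exon sites alone the scaled ratios were 0.33 (0.16 to 0.50), 0.21 (-0.01 to 0.42) and 0.25 (-0.01 to 0.51), so the ΔZF1 and noXL intervals held 0. Over all sites the ratio was above 0 for 5 of 8 members in WT, 6 in ΔZF1 and 4 in noXL. The medians of members with 20 sites were 0.38, 0.70 and 0.11, beside 0.04, -0.08 and -0.05 for all genes. The family without Chd7 and Chd9, its highest ratios, was not computed. Chd7 and Chd9 passed the limit of 1 in WT, at 2.06 (1.53 to 2.64) and 1.18 (0.81 to 1.54), where 11.5% of the 6730 genes did so. They also passed in ΔZF1, at 1.70 (0.99 to 2.49) and 1.34 (0.94 to 1.76), beside 10.9% of genes, and in noXL, at 1.66 (0.97 to 2.41) and 1.29 (0.83 to 1.77), beside 11.1%. Unscaled, the ratios of Chd7 were 1.16, 1.19 and 1.09 and those of Chd9 0.28, 0.84 and 0.73. No member was at or below -1 in these comparisons, where 10.4% of genes were so in WT, 14.1% in ΔZF1 and 12.3% in noXL. The difference for Chd7 and Chd9 was thus present without UV, and whether it followed the abundance of their RNAs was not tested.

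Intron ratios of NPC to ESC lay above exon ratios for Chd9 and, on few intron sites, for Chd7. With exon sites alone the Chd9 ratio of NPC WT to ESC WT was 0.77 (0.34 to 1.19), within the limits. With intron sites alone it was 2.21 (1.51 to 2.97). The exon ratios of Chd9 were within the limits in the other pairs as well, at 0.43 (-0.08 to 0.93) in ΔZF1 and 0.78 (0.19 to 1.37) in noXL, and the intron ratios were 3.65 (2.69 to 5.03) and 2.16 (1.38 to 3.08). For Chd7 the exon ratios were 1.77 (1.21 to 2.37) in WT, 1.61 (0.87 to 2.41) in ΔZF1 and 1.30 (0.52 to 2.14) in noXL. Its intron ratios were 3.43 (1.92 to 5.90), from 13 and 2 sites, 3.37, from 8 and 0, and 2.65 (1.31 to 4.66), from 17 and 3. In ΔZF1 the intron ratios of Chd1 and Chd6 were 2.86 and 2.78, against exon ratios of 0.38 and 0.56. Over the family the ΔZF1 ratio was 0.86 (0.60 to 1.13) in introns and 0.21 (-0.01 to 0.42) in exons. Over all sites in WT, Chd8 had -0.25 (-0.67 to 0.15) and Chd2 -0.22 (-0.52 to 0.07), so neither moved beyond counting error. Chd6 had 0.68 (0.17 to 1.17), Chd1 0.43 (0.02 to 0.83) and Chd4 0.33 (0.03 to 0.62).

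**Figure D5:**
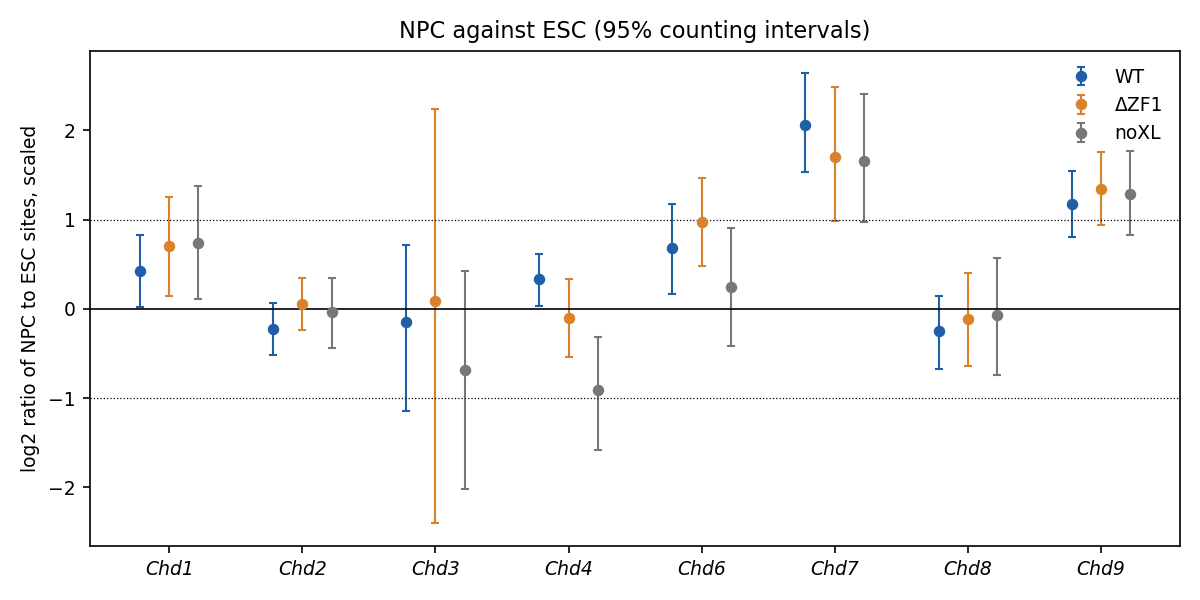
Log2 ratio of NPC to ESC sites, scaled to genic sites (y axis), for the 8 CHD genes (x axis) in the WT, ΔZF1 and noXL lists; points are ratios of pooled lists, bars 95% counting intervals, dotted lines the limits of 1 and -1. Chd7, from 1.66 to 2.06, and Chd9, from 1.18 to 1.34, were above 1 in all 3 pairs of lists, noXL included, after scaling, while Chd9 was at 0.28 in WT unscaled and below 1 in all 3 pairs with exon sites alone.

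Partner genes and other remodellers give the setting of these values. Of 12 genes that code for partners of CHD3 and CHD4 in NuRD and the ADNP complex ChAHP, 11 reached 20 sites over the ESC pair, and their median scaled log2 ratio of ΔZF1 to WT was 0.21, beside 0.04 for the 8 CHD genes and 0.04 for all genes. In NPCs these medians were -0.08, 0.09 for the 7 CHD genes with enough sites, and -0.04. None of the 11 passed a limit in ESCs. Adnp, the transcription factor that recruits CHD4 in ChAHP, had most sites, with ESC counts of 266 for WT and 156 for ΔZF1, a ratio of 0.21, followed by the histone-binding subunit gene Rbbp7, with 202 and 72 and a ratio of -0.50. In NPCs Mta3, a NuRD scaffold gene, was at 1.27 with 19 sites in WT and 31 in ΔZF1, and the deacetylase gene Hdac1 at -1.09 with 50 and 15.

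Of 10 other remodeller ATPase genes, 8 had at least 20 sites, and Smarca1 and Smarca2 had 0 in all lists. Their median ratio of ΔZF1 to WT was 0.05 in ESCs and -0.04 in NPCs, where Ino80 passed the limit at 1.17 with 27 sites in WT and 41 in ΔZF1. The gene with most sites was Atrx, with 966 in ESC WT and 299 in ESC ΔZF1, a ratio of -0.71, followed by Smarcad1, with 495 and 277 and a ratio of 0.14. Between NPC WT and ESC WT this list had a median of -0.53, with Smarcad1 at -1.35 and Ino80 at -1.09, beside 0.38 for the CHD genes and 0.04 for all genes. These medians describe the lists and were not tested.

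The genes most like Chd8 over the 6 lists were sought among 3853 genes with at least 100 sites in all, by the Euclidean distance of centred log2 scaled counts. They were Matr3 at a distance of 0.127, Dek at 0.141 and Noc2l at 0.153. Matr3 held 276, 126 and 83 sites in ESCs and 131, 86 and 54 in NPCs. For Chd2 they were Ube3a at 0.0944, Utp14a at 0.230 and Drosha at 0.243, and Ube3a held 142, 106 and 61 sites in ESCs and 66, 73 and 40 in NPCs. Both patterns rest on 6 pooled lists.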

How the data were processed

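The deposited values are PureCLIP scores, 1 per crosslinked nucleotide, in 6 lists. Per the study's methods, the authors used Flexbar for demultiplexing and trimming, STAR for alignment to mm10 and UMI-tools for duplicate removal, merged the libraries of a condition and called sites with PureCLIP. The score is not scaled to depth, so it ranked sites within a list only. Read numbers were not used here.

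Sites of chromosomes 1 to 19, X and Y were then assigned by strand to GENCODE M21 gene bodies (GRCm38, the same build as mm10) with positions counted from 1. Bases and sequences were read from the GRCm38 reference. A site in overlapping genes counted for each. Log2 ratios used a pseudocount of 1, were scaled by genic totals, and had limits of 1 and -1. Genes needed 20 sites over the pair of lists. Their intervals came from the Wilson interval of 1 list's share of the sites. Densities had exact Poisson intervals, shares Wilson intervals and differences of shares Newcombe intervals, all at 95%. These cover counting error only. Sites within 5 nt on a strand counted as shared, and shifts of 500 and 1000 nt in both directions gave the background. Exons were the union over transcripts. Fold changes against 0 used a floor of 3 sites.

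Genes named were the 8 members, Chd5, Ctcf, the gene overlapping Chd2, cell type markers, the 2 genes with most ESC WT sites and those past a limit in the ΔZF1 comparisons in each list of 12 partners and 10 other ATPases, and the 3 nearest patterns. Members and lists were chosen with earlier results of these data known. Groups came from the sample labels. Alternatives changed the scaling, score minimum, pseudocount, base, gene part, chromosome 11, overlapping genes, noXL positions and sharing distance. The calculations were tested on simulated data and run with Python 3.11.15, numpy 2.4.6, pandas 2.3.3 and scipy 1.17.1.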

Additional observations from a re-analysis of the deposited data

Results flagged for a closer look

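For 3 members the ΔZF1 to WT log2 ratio, scaled, pointed one way in ESCs and the other way in NPCs: Chd1, at -0.22 in ESCs and 0.04 in NPCs, Chd7, at 0.12 and -0.24, and Chd8, at -0.05 and 0.09. Each of the 6 intervals spanned 0, and whether the cell types differ was not tested, because each value is a ratio of 2 pooled lists. Unscaled, all 6 ratios were below 0.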

How the results depend on the processing

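No paired analysis was possible because sites had been called on merged libraries, which also leaves no single library to omit. Of the family values under the alternatives, 91 moved by less than their counting interval and 32 by more; of 774 ratios of single members these numbers were 661 and 113. Without scaling, 8 family and 29 member ratios changed sign. Under the other alternatives 5 and 50 did, of which 1 and 5 had an interval without 0 as reported, each of them in introns alone. Without scaling, the family log2 ratios were -0.78 for ESC ΔZF1 against WT, -0.30 for NPC ΔZF1 against WT, 1.27 and 0.99 for WT against noXL in ESCs and NPCs, 0.49 and 0.69 for ΔZF1 against noXL, and -0.50, -0.02 and -0.22 for NPC against ESC in WT, ΔZF1 and noXL. These values carry the unequal lengths of the lists. Scaling by the median ratio over genes moved no family value beyond its interval.

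With a score minimum of 3.02, ESC ΔZF1 against WT was 0.38, ESC WT against noXL -0.45 and the uridine share of NPC WT 71.6%. Without Chd2, ESC ΔZF1 against WT was 0.02, and NPC against ESC was 0.58 in WT and 0.69 in ΔZF1. In introns alone, WT against noXL was -0.03 in ESCs and 0.05 in NPCs, NPC against ESC was 0.58 in WT and 0.86 in ΔZF1, NPC ΔZF1 against noXL was 0.41, and the uridine share was 53.8% for ESC ΔZF1 and 34.4% for ESC noXL. In exons alone, NPC ΔZF1 was -0.15 against noXL and 0.21 against ESC ΔZF1. In introns alone the Chd3 ratios turned to 0.46 for ESC ΔZF1 against WT, from 3 and 5 sites, and 0.22 against noXL, that of Chd9 to -0.67 for ESC ΔZF1 against WT, and those of Chd2 to 0.20 and 0.25 for WT against noXL in ESCs and NPCs. The cause was not tested. Within 0 and 50 nt, the shared shares were 7.24% and 56.2% for ESC ΔZF1 near WT, 4.43% and 35.8% for NPC ΔZF1 near WT, 2.25% and 30.3% for ESC WT near noXL, and 1.52% and 21.5% for NPC WT near noXL. Leaving out sites 1 to 3 nt before annotated starts, chosen after the data were seen, moved no family value beyond its interval.

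The limits are those of 6 pooled lists of unknown depth. Replicate error, RNA abundance and a noXL control of the ΔZF1 line were not measured here, and Chd3 rests on 2 to 28 sites a list.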

Other observations

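On the strand opposite to the members, the ESC lists (WT, ΔZF1, noXL) had 7, 5 and 1 sites and each NPC list had 1. In ESC WT 4 of the 7 were opposite Chd2 and 3 opposite Chd9, and in ESC ΔZF1 3 of 5 were opposite Chd2 and 2 opposite Chd9. The ESC WT list held 1024 sites on the members' own strand.

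Mir7045, a miRNA in an exon of Chd4, held 1 site in ESC noXL and 0 in the 5 other lists. The scaRNA Gm23751 in Chd4 held 4, 1 and 0 sites inside its body in ESCs and 3, 0 and 0 in NPCs. Snord8 in Chd8 held 3 sites inside its body in ESC WT and 0 in the other 5 lists, while its 5′ flank of 3 nt had 3, 3 and 2 sites in ESCs and 3, 2 and 1 in NPCs.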
